A study of Mus musculus with 11 samples.

Results

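The data describe what deletion of Srebf2 did to RNA levels in regulatory T cells (Tregs) of the mouse spleen. The members are the spleen samples whose labels match a column of the deposited table, which are 4 of the 11 samples named in the labels. The 2 knockout (KO) libraries, replicates 2 and 3, came from Foxp3-YFPcre Srebf2-flox/flox mice, and the 2 wild-type (WT) libraries, also replicates 2 and 3, from Foxp3-YFPcre Srebf2-WT/WT mice. All mice were males aged 25 weeks, and the WT mice carry the same Cre as the KO mice. Cre is driven by Foxp3, so the floxed gene is open to deletion in cells that have expressed Foxp3. The cells were sorted as live CD3+ CD4+ Foxp3+ cells, and RNA was sequenced in bulk. Tregs from visceral adipose tissue (VAT) of the same genotypes, 3 KO and 3 WT libraries, enter below as a comparison. Spleen KO replicate 1 was not analysed here.

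Srebf2 encodes SREBP2, a transcription factor that is held in the endoplasmic reticulum by Scap and Insig proteins while sterols are plentiful. When sterols run low it is carried to the Golgi, cut by the site 1 and site 2 proteases, and its freed part switches on the enzymes of cholesterol synthesis and the proteins of sterol uptake. Foxp3 is the defining transcription factor of Tregs, the CD4 T cells that restrain immune responses, and resting and activated Tregs are both found in the spleen.

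Levels are given as RPKM, reads per gene scaled by gene length and library size, and changes as KO minus WT on the log2(RPKM + 1) scale, which understates the change of low genes. Of the 10992 genes in the table, 9872 had at least 1 RPKM in at least 2 of the 4 spleen libraries and were tested. The 4 libraries each had between 9551 and 9722 genes at 1 RPKM or more, and read depth is unknown. WT replicate 2 stood apart from the other 3 spleen libraries. In it, 389 genes (3.94% of those tested) lay at least 2-fold outside the range of the other 3, against 21 genes for KO replicate 2, 54 for KO replicate 3 and 18 for WT replicate 3. Its correlation across genes with the others was 0.919 to 0.926, while the others correlated at 0.966 to 0.975 with each other (genes are not independent replicates). Results are therefore given library by library, and with WT replicate 2 left out where that matters. The labels do not say whether each library stands for its own mouse. The limma p-values below thus rest on the spread between libraries of a group, which may be technical. That spread is pooled over spleen and VAT, unless a fit is said to hold the spleen groups alone.

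The sort genes were present in all 4 libraries. Foxp3 itself had 8.87 and 7.82 RPKM in spleen KO, against 6.97 and 8.69 RPKM in spleen WT, and the groups overlapped (two-sided exact permutation p = 0.667, smallest possible 0.333). Cd4, the co-receptor used in the sort, lay between 116 and 147 RPKM and Cd3e, a T cell receptor chain, between 190.0 and 215 RPKM. Some markers of other cells were in the table. Of 12 red cell and platelet markers none was in the table, and of 22 myeloid and dendritic markers 7 were, summing to 187 and 191 RPKM in KO, against 248 and 184 RPKM in WT, most of it from Ctss, a cathepsin. The 11 B cell markers present, of 18 looked for, summed to 101 and 138 RPKM in KO and to 107 and 135 RPKM in WT. Most of this was Cd74, but Cd79b, at 16.7 to 21.3 RPKM, lay above Foxp3 in each spleen library. Ms4a1, at 0.624 to 1.60 RPKM, lay under Foxp3 in each. The 3 present of 13 CD8, NK and gamma-delta T cell markers summed to 35.0 and 35.3 RPKM in KO and to 61.4 and 36.3 RPKM in WT, with WT replicate 2 the high one. Among them Cd8b1 (10.8 to 18.7 RPKM) and Nkg7 (15.8 to 41.4 RPKM) lay above Foxp3 in each spleen library, and Cd8a lay under it. Jchain, the only one of 5 plasma cell markers in the table, had 0.235 and 2.55 RPKM in KO, against 1.71 and 15.5 RPKM in WT, highest in WT replicate 3. Mmp9, the only one of 11 neutrophil markers in the table, had 3.84 and 1.95 RPKM in KO, against 0.387 and 4.93 RPKM in WT. The 2 present of 14 stromal and endothelial markers, Pecam1 and Vwf, summed to 35.1 and 19.8 RPKM in KO, against 17.0 and 31.6 RPKM in WT. In sorted bulk samples, fewer cells of a type and less RNA per cell cannot be told apart.

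Srebf2 (chr15:82147269-82205379, mm10) was low in both KO libraries. It had 2.59 and 1.59 RPKM in spleen KO, against 10.5 and 23.2 RPKM in spleen WT, a change of -2.45 ± 0.40 (log2, SE, n = 2 a group). Here and below, the SE of a change comes from the limma fit of all 10 libraries, VAT included. It is therefore not the spread of the spleen libraries alone, which can be wider. The groups did not overlap, and KO averaged 12.4% of WT. The adjusted p of Srebf2 was 0.234 with limma over all genes tested, and 0.942 when limma was run on the spleen groups alone. In an exact permutation test 2 libraries a side cannot reach a p under 0.333. The 2 WT libraries themselves differed by 1.07 (log2) at Srebf2, the higher being replicate 3. In VAT Tregs the same deletion gave -3.67 ± 0.33 (limma adjusted p = 0.000792), with 0.263, 0.600 and 1.23 RPKM in KO and 16.6, 15.6 and 30.5 RPKM in WT. The difference of the Srebf2 change between the tissues was 1.21 ± 0.52 and did not pass (limma adjusted p = 0.697). An RPKM over the whole gene does not show which exons remain in the KO transcript.

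No gene passed an adjusted p of 0.05 in the spleen by limma (0 of 9872, 0.0%), whereas 856 genes had an unadjusted p under 0.05, 397 of them higher (4.02%) and 459 lower (4.65%) in KO. In VAT, with 3 libraries a group, 43 genes (0.436%) passed the same test. None of the spleen changes below therefore passed the test in the fit of all libraries. With WT replicate 2 left out, 5 genes passed, all lower in KO, among them Srebf2, Apobec3, Cbx7 and Sqle. With WT replicate 3 left out, so that replicate 2 alone stood for WT, 1429 genes passed, 752 higher and 677 lower. With KO replicate 2 left out 13 genes passed, and with KO replicate 3 left out none did (473 at an unadjusted limma p under 0.05). In such fits the single library is assumed to vary like the other groups.

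As a description that does not lean on a test, genes were counted whose 2 KO libraries both lay outside both WT libraries. This held for 1492 genes higher in KO (15.1%) and 1722 lower in KO (17.4%). Only 14 genes were at least 2-fold apart in this sense, with 2 higher (0.0203%) and 12 lower (0.122%) in KO. The 12 lower genes included Srebf2, the cholesterol enzymes Sqle and Cyp51, and Apobec3, Cbx7 and Naprt from the chromosome of Srebf2. Zfp189, Ptprj, Aldh1b1, Zc2hc1a and Gm5532 were also among them, and 1 is not reported here. The 2 higher genes were Hspa1a and Hspa1b. Sqle, Ptprj, Zc2hc1a and Gm5532 reached 1 RPKM in WT libraries only and Hspa1a in KO libraries only, so that these passed the filter through the group where they were high.

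**Figure D1:**
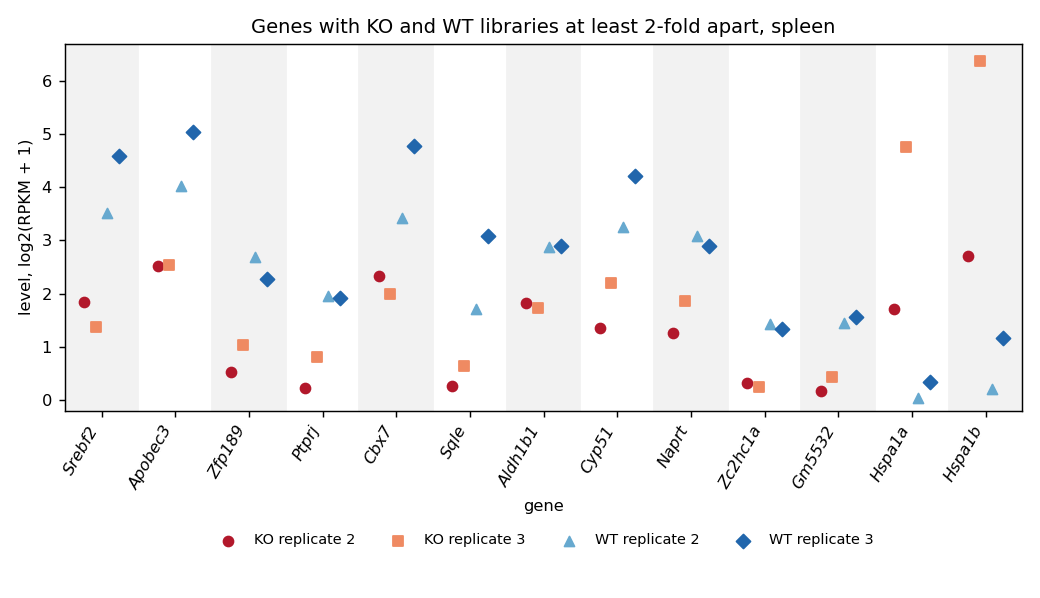
Level of 13 of the 14 genes whose KO and WT libraries were at least 2-fold apart in spleen, as log2(RPKM + 1) on the y axis, with 1 point per library (KO left, WT right). For 11 genes both KO points lie under both WT points, and for Hspa1a and Hspa1b KO replicate 3 lies far above KO replicate 2.

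Cholesterol synthesis was the gene group with the lowest median change of the 19 pathway lists. All 21 enzymes on the list were measured and tested, and 18 were lower in KO on average (85.7%, against 52.7% of all genes tested) and 3 higher, with a median of -0.53 against -0.02 over all genes tested. In 13 of the 21 (61.9%, against 17.4% of all genes tested) both KO libraries lay under both WT libraries, and in none did both lie above. None was called, and 10 had an unadjusted limma p under 0.05, all lower. The median was -0.72 without WT replicate 2, with 20 of 21 lower, and -0.48 without WT replicate 3, with 15 of 21 lower. Without KO replicate 2 it was -0.53 (18 lower) and without KO replicate 3 it was -0.43 (16 lower). The list was drawn up with earlier results of these libraries known, so its direction is not independent evidence.

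In the first part of the pathway, from acetyl-CoA to farnesyl diphosphate, Hmgcs1, which makes HMG-CoA, had 3.88 and 2.86 RPKM in KO, against 5.76 and 10.5 RPKM in WT. Both KO libraries lay under both WT libraries, and the change was -1.02 ± 0.30 (limma adjusted p = 0.530). Idi1, the isopentenyl diphosphate isomerase, had 1.39 and 2.47 RPKM in KO, against 2.80 and 4.998 RPKM in WT, a change of -0.73 ± 0.33. Fdps, the farnesyl diphosphate synthase, had 5.91 and 7.50 RPKM in KO, against 9.96 and 11.6 RPKM in WT. Idi1 and Fdps did not overlap between groups. The mevalonate kinases and decarboxylase differed less. Pmvk stood at -0.43 ± 0.33 and Mvd at -0.37 ± 0.21, both without overlap, while Mvk stood at 0.16 ± 0.38 and Acat2, which joins acetyl-CoA units, at 0.08 ± 0.21, both with overlap.

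The committed steps to sterols showed the widest gaps. Sqle, the squalene epoxidase, had 0.197 and 0.552 RPKM in KO, against 2.29 and 7.46 RPKM in WT. Its change of -1.95 ± 0.38 was among the largest of the list (limma adjusted p = 0.311). Fdft1, the squalene synthase one step earlier, had 2.35 and 4.16 RPKM in KO, against 6.54 and 9.85 RPKM in WT, a change of -1.12 ± 0.27 (adjusted p = 0.428). Cyp51, the lanosterol demethylase, had 1.56 and 3.60 RPKM in KO, against 8.50 and 17.4 RPKM in WT, and its change was also -1.95 ± 0.38 (adjusted p = 0.311). In all 3 genes the lower WT library was replicate 2, as for Srebf2, and it still lay above both KO libraries. Lss, which closes the sterol ring between Sqle and Cyp51, had 1.86 and 0.381 RPKM in KO, against 1.15 and 1.69 RPKM in WT, and overlapped.

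Of the later enzymes, Sc5d, the lathosterol desaturase, had 9.87 and 11.9 RPKM in KO, against 16.4 and 18.8 RPKM in WT (-0.65 ± 0.18, limma adjusted p = 0.530). Msmo1, the sterol 4-methyl oxidase, had 3.41 and 3.80 RPKM in KO, against 5.40 and 7.62 RPKM in WT. Nsdhl, which acts with it in demethylation, had 5.66 and 3.03 RPKM in KO, against 6.90 and 7.71 RPKM in WT. These 3 genes and the sterol reductase Tm7sf2 (-0.53 ± 0.27) did not overlap between groups. Lbr, a sterol reductase that is also a nuclear envelope protein and the most abundant gene of the list, had 72.1 and 62.7 RPKM in KO, against 66.2 and 71.5 RPKM in WT. Ebp, Dhcr7 and Hsd17b7 overlapped as well, and Hsd17b7, at 0.62 ± 0.45, was the member farthest above 0. Its WT replicate 2 value of 0.434 RPKM stood far under the 2.51 RPKM of WT replicate 3 and the 2.45 RPKM of each KO library.

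**Figure D2:**
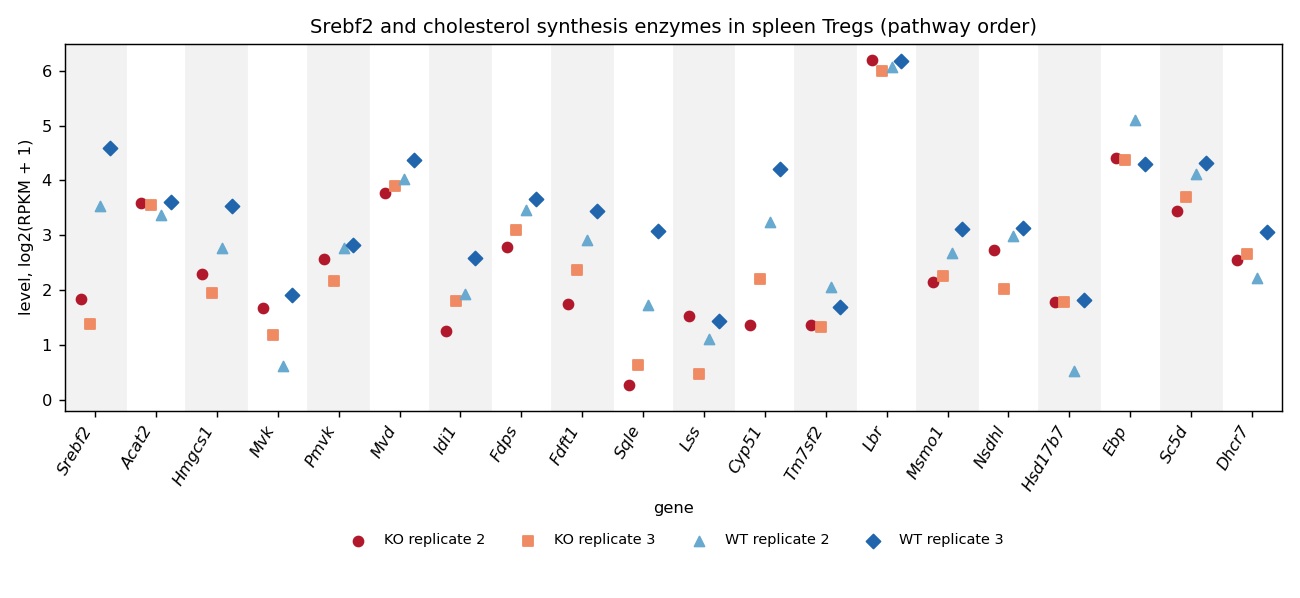
Level of Srebf2 and 19 of the 21 cholesterol synthesis enzymes in pathway order, as log2(RPKM + 1) on the y axis, with 1 point per spleen library (KO left, WT right). Srebf2, Sqle and Cyp51 show the widest gaps between KO and WT points, and Lbr, Acat2 and Dhcr7 show none.

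The promoters of the 3 enzymes with the smallest unadjusted p among those that did not overlap and had a promoter in the reference table are shown, since the deleted factor acts on such sequences. Each is the 250 bases before the RefSeq gene start (GRCm38.p6, which is mm10), 5′ to 3′ on the strand of the gene. Capitals mark matches on either strand to TCACNCCAC, a form of the sterol regulatory element that SREBPs bind, and to CCAAT, the box bound by NF-Y, a factor known to act beside SREBPs. On the other strand CCAAT reads ATTGG. Matches to the 2 motifs share no bases here.
Cyp51, chr5:4104698-4104947, minus strand: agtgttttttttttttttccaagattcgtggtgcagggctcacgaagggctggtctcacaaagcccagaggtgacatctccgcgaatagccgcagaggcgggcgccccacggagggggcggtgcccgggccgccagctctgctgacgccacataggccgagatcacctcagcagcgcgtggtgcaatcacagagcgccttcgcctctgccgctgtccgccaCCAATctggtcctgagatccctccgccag
Sc5d, chr9:42264301-42264550, minus strand: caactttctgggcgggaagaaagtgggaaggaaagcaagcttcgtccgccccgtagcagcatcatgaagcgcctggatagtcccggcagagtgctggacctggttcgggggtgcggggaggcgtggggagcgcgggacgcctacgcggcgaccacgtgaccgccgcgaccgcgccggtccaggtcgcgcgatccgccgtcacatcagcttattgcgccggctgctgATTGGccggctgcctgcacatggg
Hmgcs1, chr13:119690101-119690350, plus strand: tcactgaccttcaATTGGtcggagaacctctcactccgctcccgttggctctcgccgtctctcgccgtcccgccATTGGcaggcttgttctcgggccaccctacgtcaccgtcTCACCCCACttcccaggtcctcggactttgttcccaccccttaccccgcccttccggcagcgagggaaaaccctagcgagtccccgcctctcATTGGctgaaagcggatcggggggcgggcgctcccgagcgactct
In Hmgcs1 the window holds 1 match to TCACNCCAC, starting at position -137 from the gene start, and 3 to CCAAT. Cyp51 and Sc5d hold 1 CCAAT match each, at -29 and -24, and no TCACNCCAC. Of the 16 cholesterol enzymes with a promoter in the table, 15 held CCAAT and 1, Hmgcs1, held TCACNCCAC. Among the 10096 promoters of tested genes, 35.9% held CCAAT and 1.05% held TCACNCCAC in this window. An enzyme was counted as holding a motif if any of its promoters did, whereas these shares are of single promoters. A match of letters describes the sequence, and neither a match nor its absence shows where the factor binds.

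The genes that control SREBP processing and sterol uptake showed no common direction. Of 21 on the list 19 were tested, 10 of them lower and 9 higher in KO, with a median of -0.09. In 6 (31.6%, against 17.4% of all genes tested) both KO libraries lay under both WT libraries and in 2 (10.5%, against 15.1%) above. The median was -0.17 without WT replicate 2 (14 lower) and -0.03 without WT replicate 3 (10 lower). Insig1, which retains the SREBP and Scap complex and is itself an SREBP target, had 3.39 and 4.53 RPKM in KO, against 8.34 and 9.55 RPKM in WT, without overlap (-1.01 ± 0.32, limma adjusted p = 0.563). Its relative Insig2 had 4.76 and 5.18 RPKM in KO, against 8.60 and 6.003 RPKM in WT (-0.46 ± 0.21). Scap, the escort protein, stood at 0.01 ± 0.18, and Mbtps1, the site 1 protease, at -0.11 ± 0.22, both with overlap. Srebf1, the paralog that acts mainly on fatty acid synthesis, had 13.5 and 10.4 RPKM in KO, against 16.2 and 15.1 RPKM in WT, and was not higher in either KO library (-0.37 ± 0.27).

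Among the transport members, Stard4, which moves sterols through the cytosol, stood at -0.48 ± 0.25 without overlap. Tmem97, which binds the lysosomal cholesterol exporter Npc1, had 6.33 and 5.98 RPKM in KO, against 3.39 and 12.3 RPKM in WT. Its 2 WT libraries lay on either side of the KO pair, and its change was -0.09 ± 0.40 in spleen beside -1.22 ± 0.32 in VAT (difference 1.13, limma adjusted p = 0.698). Npc1, Npc2 and Scarb1, the HDL receptor, overlapped between groups, with changes of 0.22, -0.16 and -0.30. Lipa, the lysosomal lipase that frees cholesterol from its esters, and Erlin1, a membrane protein that holds SREBPs back, were the 2 members higher in KO without overlap, at 0.28 ± 0.21 and 0.41 ± 0.28.

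Genes of sterol efflux and esterification were all higher on average, 10 of 10 with a median of 0.30, but the median was 0.01 without WT replicate 2, with 3 of 10 lower. The highest change among them, 0.53 ± 0.30, was that of Soat1, which esterifies cholesterol, with 4.95 and 6.97 RPKM in KO, against 2.97 and 4.76 RPKM in WT. The exporters Abca1 and Abcg1, targets of the LXR sterol sensors, stood at 0.01 ± 0.40 and 0.17 ± 0.23 and overlapped. Of 16 fatty acid synthesis genes tested 11 were lower, with a median of -0.16, 6 of them (37.5%, against 17.4% of all genes tested) without overlap. Their median was -0.28 without WT replicate 2 (14 lower) and -0.05 without WT replicate 3 (9 lower). Mid1ip1, an activator of acetyl-CoA carboxylase, had 4.85 and 4.38 RPKM in KO, against 10.9 and 7.40 RPKM in WT (-0.83 ± 0.25, limma adjusted p = 0.539), and stood at -0.64 in VAT. Fasn, the fatty acid synthase, stood at -0.09 ± 0.23. Elovl5, a fatty acid elongase, had 76.5 and 86.0 RPKM in KO, against 33.5 and 68.6 RPKM in WT, with WT replicate 2 the lowest (0.75 ± 0.25). The 17 isoprenoid and prenylation genes had a median of -0.04. Dolk, the dolichol kinase, had 7.63 and 11.1 RPKM in KO, against 21.4 and 15.7 RPKM in WT (-0.92 ± 0.27), while Ggps1, which makes geranylgeranyl diphosphate, had 8.81 and 9.12 RPKM in KO, against 5.35 and 7.08 RPKM in WT (0.48 ± 0.21). Both were without overlap, and in VAT they stood at 0.12 and 0.01.

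Apobec3 and Cbx7, like Srebf2, were low in both KO libraries. Apobec3 (chr15:79892058-79918218), a cytidine deaminase that restricts retroviruses, had 4.71 and 4.81 RPKM in KO, against 15.4 and 31.9 RPKM in WT (-2.01 ± 0.32, limma adjusted p = 0.234). Cbx7 (chr15:79915804-79971143), a Polycomb subunit that reads methylated histone H3, had 4.02 and 2.97 RPKM in KO, against 9.70 and 26.5 RPKM in WT (-1.94 ± 0.38, adjusted p = 0.311). Neither overlapped between groups, and in both WT replicate 3 was the highest library, as for Srebf2. In VAT both passed the test, Apobec3 at -1.89 (adjusted p = 0.0115) and Cbx7 at -1.64 (adjusted p = 0.0458). Their annotated spans overlap, and the library kit does not mark strand, so reads in the shared stretch cannot be assigned to one of them.

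Both genes lie on chromosome 15 within 5 Mb of Srebf2, Apobec3 starting 2.26 Mb and Cbx7 2.23 Mb from its start on the low-coordinate side. Of the 191 tested genes within 10 Mb, Srebf2 left out, 3 (1.57%) were at least 2-fold lower in KO without overlap, the third being Naprt at 6.26 Mb. On all other chromosomes 7 of 9481 genes were (0.0738%). Changes of at least 1 (log2) in either direction were seen in 1 of 43 genes within 2 Mb (2.33%), 5 of 63 between 2 and 5 Mb (7.94%), 4 of 85 between 5 and 10 Mb (4.71%), 7 of 199 farther along the chromosome (3.52%) and 145 of the genes on other chromosomes (1.53%). The counts near Srebf2 are small and were looked at because earlier results had named Apobec3. Directions were mixed. Bik, a proapoptotic BCL2 relative 1.38 Mb away on the other side, had 2.36 and 3.34 RPKM in KO, against 0.029 and 1.01 RPKM in WT (1.41 ± 0.34, limma adjusted p = 0.446), and Poldip3, an RNA-binding protein 0.98 Mb away, had 36.4 and 35.1 RPKM in KO, against 19.6 and 23.7 RPKM in WT (0.70 ± 0.18). Cbx6, a Polycomb subunit related to Cbx7, was named after its values were seen, with 2.15 and 2.32 RPKM in KO, against 4.13 and 9.39 RPKM in WT (-1.17 ± 0.32).

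**Figure D3:**
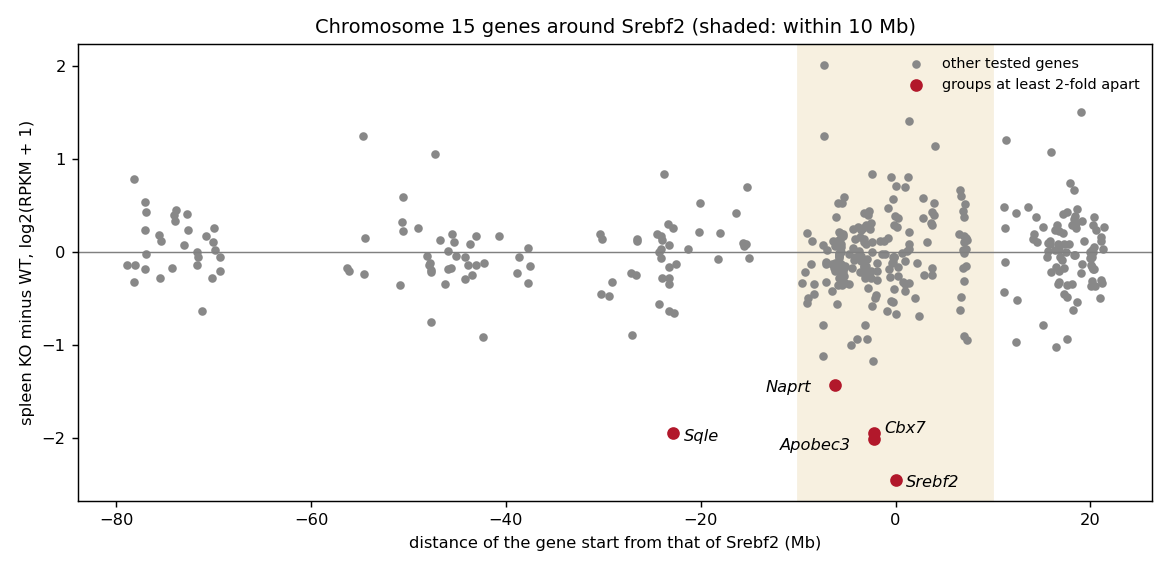
Change of each tested gene on chromosome 15 in spleen (y axis, KO minus WT, log2(RPKM + 1)) against the distance of its start from that of Srebf2 (x axis, Mb), with genes at least 2-fold apart without overlap in red. Apobec3, Cbx7 and Naprt lie inside the shaded 10 Mb, Sqle lies outside it, and no gene on this chromosome with a higher level in KO was 2-fold apart.

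Naprt, which makes NAD from nicotinic acid, had 1.41 and 2.63 RPKM in KO, against 7.45 and 6.47 RPKM in WT (-1.43 ± 0.30, limma adjusted p = 0.311). In VAT it stood at 0.55 (difference between tissues -1.97, adjusted p = 0.324). Nfil3, a transcription factor induced by T cell receptor and cytokine signals, had 9.65 and 11.4 RPKM in KO, against 24.7 and 20.4 RPKM in WT (-1.03 ± 0.20, adjusted p = 0.311). Rilpl2, a Rab effector of primary cilia, had 38.3 and 34.6 RPKM in KO, against 81.0 and 56.0 RPKM in WT. These 3 genes were lower in both KO libraries against either WT library. Nrn1, a neuritin found on anergic T cells and Tregs, had 2.59 and 3.29 RPKM in KO, against 7.23 and 7.67 RPKM in WT (-1.11 ± 0.25), and Mphosph6, an exosome-associated RNA processing factor, 9.82 and 7.46 RPKM in KO, against 19.0 and 15.3 RPKM in WT. Slc7a10, an amino acid transporter, had 4.66 and 2.12 RPKM in KO, against 13.1 and 7.77 RPKM in WT.

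Among genes that were higher in KO without overlap, Rbks, the ribokinase, had 13.4 and 12.8 RPKM in KO, against 5.47 and 6.18 RPKM in WT (1.05 ± 0.22, limma adjusted p = 0.311). The values within each group were close, and the gap between groups was 0.94 (log2). Klf6, a zinc finger transcription factor, had 53.4 and 68.0 RPKM in KO, against 37.2 and 38.4 RPKM in WT (0.66 ± 0.14, adjusted p = 0.326). Cpt1a, which lets long-chain fatty acids into mitochondria, had 12.9 and 15.5 RPKM in KO, against 6.30 and 9.42 RPKM in WT (0.79 ± 0.20). Mapk1ip1l had 9.44 and 11.03 RPKM in KO, against 4.13 and 5.16 RPKM in WT. Pja1, a ubiquitin ligase, and Plcl2, a phospholipase C-like protein, stood at 0.77 ± 0.19 and 0.75 ± 0.19. Rasl11b, Prkx and Crmp1 were higher too (2.04, 1.34 and 0.99), and in each WT replicate 2 was the lowest library. For Rasl11b it had 0.034 RPKM, beside 3.04 RPKM in WT replicate 3 and 6.03 and 9.05 RPKM in KO.

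Heat shock proteins and chaperones had the highest median of the pathway lists, 0.87, and KO replicate 3 carried most of it. Of 17 tested, 15 were higher in KO on average, 9 (52.9%, against 15.1% of all genes tested) without overlap. KO replicate 3 exceeded KO replicate 2 by a median of 1.38 (log2) over the list. Without KO replicate 3 the median was 0.14 and 5 of 17 were lower, and without KO replicate 2 it was 1.57. Hspa1b, an inducible HSP70 gene, had 5.57 and 82.3 RPKM in KO, against 0.156 and 1.23 RPKM in WT (3.87 ± 0.81, limma adjusted p = 0.311). Hspa1a, the other, had 2.29 and 26.01 RPKM in KO, against 0.025 and 0.259 RPKM in WT (3.05 ± 0.69, adjusted p = 0.346). These are near-identical copies, so the split of reads between them is uncertain. Even KO replicate 2 lay above both WT libraries for them.

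Dnajb1, an HSP40 co-chaperone, had 57.0 and 208 RPKM in KO, against 36.8 and 47.1 RPKM in WT, and Dnaja1, another, 35.0 and 85.0 RPKM in KO, against 25.5 and 26.1 RPKM in WT. For both, KO replicate 3 was more than 2-fold above every other library. Hsp90aa1, the inducible HSP90, had 40.9 RPKM in KO replicate 2 and 143 RPKM in KO replicate 3, against 35.98 and 36.3 RPKM in WT. The endoplasmic reticulum chaperone Hspa5 stood at -0.17 and the transcription factor Hsf1 at 0.14. Cirbp, the cold-inducible RNA-binding protein, was lower in KO, with 19.3 and 8.73 RPKM in KO, against 41.8 and 29.99 RPKM in WT (-1.37 ± 0.31), lowest in KO replicate 3. With KO replicate 2 left out, 12 genes passed the test as higher in KO and 1 as lower. Of these 13, Hspa1a, Hspa1b, Hspd1, Hsp90aa1, Hsp90ab1, Dnaja1, Dnajb1 and Bag3 are on the heat shock list, Ahsa2 and Stip1 are cochaperones of HSP90, Tnfsf9 encodes the ligand 4-1BBL, Ccdc117 is a coiled-coil protein, and Cirbp was the lower one. Hspa1b averaged 414 ± 107 RPKM in VAT KO and 307 ± 102 RPKM in VAT WT (SD, n = 3 each), levels above those of all 4 spleen libraries. What set KO replicate 3 apart was not tested.

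**Figure D4:**
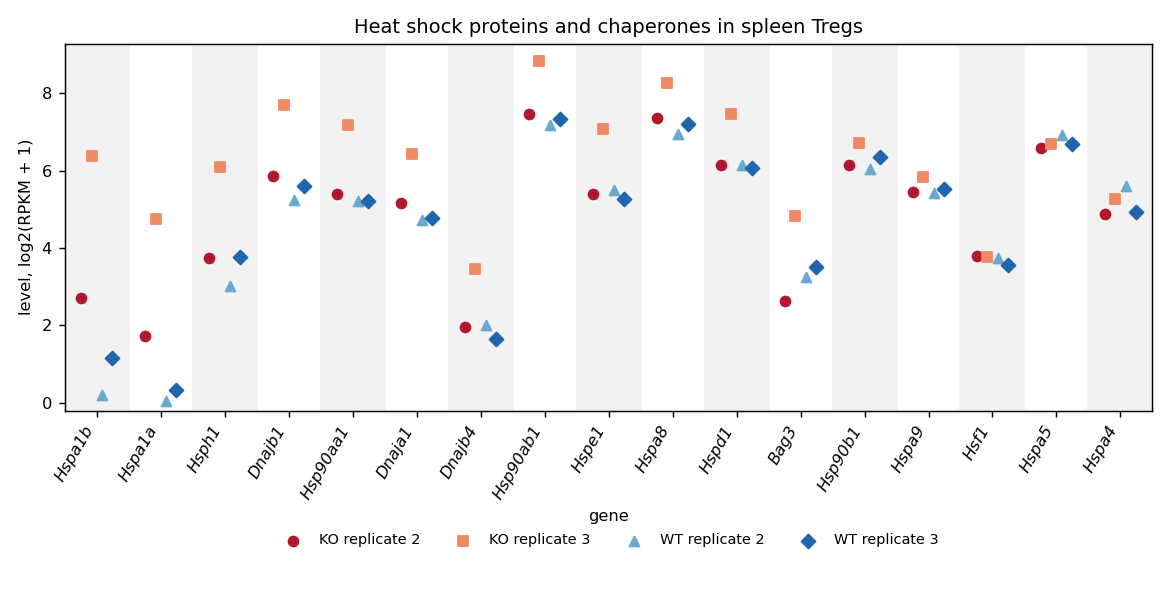
Level of the 17 heat shock proteins and chaperones tested in spleen, as log2(RPKM + 1) on the y axis, with 1 point per library (KO left, WT right). KO replicate 3 is the highest library for most genes, while KO replicate 2 lies near the WT points except at Hspa1b and Hspa1a.

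Core Treg genes were split in direction. Of 21 tested 11 were higher and 10 lower, with a median of 0.03. In 7 (33.3%, against 17.4% of all genes tested) both KO libraries lay under both WT libraries and in 3 (14.3%, against 15.1%) above. The median was -0.03 without WT replicate 2, -0.09 without WT replicate 3, -0.02 without KO replicate 2 and -0.15 without KO replicate 3. Tigit, an inhibitory receptor, had 46.6 and 38.1 RPKM in KO, against 64.7 and 68.0 RPKM in WT (-0.64 ± 0.20, limma adjusted p = 0.563), and stood at 0.15 in VAT. The TNF receptors Tnfrsf4 (OX40) and Tnfrsf9 (4-1BB) had changes of -0.38 ± 0.15 and -0.37 ± 0.19, both without overlap. Il10, which encodes the suppressive cytokine interleukin 10, had 1.26 and 6.02 RPKM in KO, against 6.77 and 8.84 RPKM in WT (-1.14 ± 0.38), with the 2 KO libraries far apart. Ikzf2 (Helios) had 16.4 and 17.1 RPKM in KO, against 31.6 and 22.1 RPKM in WT (-0.63 ± 0.35). Ctla4, the checkpoint receptor, had 107 and 100.4 RPKM in KO, against 108 and 92.2 RPKM in WT, and overlapped.

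Genes of central, resting Tregs leaned higher. Of 17 tested 15 were higher in KO, 9 (52.9%, against 15.1% of all genes tested) without overlap, and in none did both KO libraries lie under both WT libraries. The median was 0.24, 0.17 without WT replicate 2 (4 of 17 lower) and 0.39 without WT replicate 3. Itga6, an integrin chain, had 25.8 and 22.6 RPKM in KO, against 14.2 and 19.7 RPKM in WT (0.50 ± 0.24), and Satb1, a chromatin organizer, 14.8 and 13.5 RPKM in KO, against 8.22 and 11.3 RPKM in WT (0.51 ± 0.30). Dgka, a diacylglycerol kinase that dampens T cell receptor signals, had 435 and 401 RPKM in KO, against 294 and 369.5 RPKM in WT (0.34 ± 0.16). In all 3 the lower WT library was replicate 2. In VAT the median of the list was 0.70, but no gene of any list passed the test of the difference between tissues.

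Effector Treg genes were split, 14 of 27 higher and 13 lower, with a median of 0.02. Cxcr6, a chemokine receptor of tissue T cells, had 6.96 and 5.39 RPKM in KO, against 1.38 and 4.33 RPKM in WT (1.00 ± 0.28, limma adjusted p = 0.530). Il1rl1, the interleukin 33 receptor ST2, had 6.32 and 6.72 RPKM in KO, against 2.66 and 4.67 RPKM in WT (0.72 ± 0.23, adjusted p = 0.552). Neither overlapped, and in both WT replicate 2 was the lowest library. Ccr8, another chemokine receptor of activated Tregs, had 28.9 and 26.9 RPKM in KO, against 36.02 and 36.2 RPKM in WT (-0.36 ± 0.15). Ccr10 was listed at 0 in WT replicate 2 and had 1.63 RPKM in WT replicate 3, with 4.30 and 1.75 RPKM in KO.

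The 22 genes induced through the T cell receptor had a median of -0.03, which was -0.16 without WT replicate 2 and 0.07 without WT replicate 3. Besides Nfil3, Egr3, an early growth response factor, had 1.06 and 0.891 RPKM in KO, against 1.59 and 2.98 RPKM in WT (-0.70 ± 0.33), while Nfkbid, an atypical NF-kB inhibitor, had 41.2 and 42.1 RPKM in KO, against 22.0 and 33.9 RPKM in WT (0.59 ± 0.22). Of 17 immediate early genes 12 were lower, with a median of -0.16, and Junb, an AP-1 subunit, had 134 and 152 RPKM in KO, against 219.5 and 166 RPKM in WT. Of 34 interferon response genes 22 were lower, 10 of them without overlap (29.4%, against 17.4% of all genes tested), with a median of -0.09. Without WT replicate 2 this median was -0.02 (20 lower), and without WT replicate 3 it was -0.07 (21 lower). Isg20, an exonuclease, had 14.7 and 14.2 RPKM in KO, against 25.3 and 18.9 RPKM in WT, and Ifit3, an antiviral protein, 9.52 and 7.90 RPKM in KO, against 52.4 and 11.1 RPKM in WT, where replicate 2 alone was high. Oasl1, an oligoadenylate synthetase-like protein, had 2.09 and 2.24 RPKM in KO, against 0.156 and 0.966 RPKM in WT (1.07 ± 0.33). It reached 1 RPKM in KO libraries only, so it passed the filter through the group where it was high.

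The remaining lists had medians between -0.10 and 0.07. In the proliferation list 22 of 31 were lower with a median of -0.10, but this turned with single libraries. Without KO replicate 2 the median was 0.13 (11 lower) and without WT replicate 3 it was 0.02 (15 lower), and KO replicate 3 exceeded KO replicate 2 by a median of 0.33. Ccnb1, the mitotic cyclin B1, stood at 0.89 with 2.10 and 3.67 RPKM in KO, against 0.741 and 1.42 RPKM in WT. Glycolysis had a median of -0.08 over 22 genes, with Eno3, a muscle-type enolase, at 0.96 and the lactate exporter Slc16a3 at -0.59. Endoplasmic reticulum stress genes had a median of -0.09 over 22, clock genes 0.05 over 14, and apoptosis and survival genes 0.07 over 21. Of the clock genes Per2, a repressor of the cycle, had 3.30 and 2.09 RPKM in KO, against 1.33 and 0.880 RPKM in WT, and Arntl, its activator, 16.9 and 11.9 RPKM in KO, against 3.13 and 11.9 RPKM in WT.

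Oxidative phosphorylation and ribosomal protein genes were lower on average in KO but turned with WT replicate 2. Of 61 oxidative phosphorylation genes 60 were lower, with a median of -0.28, and without WT replicate 2 the median was 0.13, with 13 of 61 lower. All 79 cytosolic ribosomal protein genes were lower, with a median of -0.20, and without WT replicate 2 the median was 0.25, with 1 of 79 lower. Only 7 and 1 genes of the 2 lists were lower without overlap (11.5% and 1.27%, against 17.4% of all genes tested). Ndufs8, a subunit of complex I, had 42.4 and 36.1 RPKM in KO, against 85.5 and 41.5 RPKM in WT, and Rps16, a protein of the small ribosomal subunit, 133 and 147 RPKM in KO, against 249.8 and 122 RPKM in WT. In each the high value was WT replicate 2 alone.

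WT replicate 2 also differed from the other 3 libraries by transcript length. Tested genes were split into 4 equal bins of transcript length, a split chosen after the data were seen. In the bin of the shortest transcripts, up to 2197 bases, it stood 0.36 above the mean of the other 3 (median, log2), and in the bin of the longest, from 4691 bases, 0.24 below. KO minus WT followed, at -0.16 in the shortest bin and 0.11 in the longest, and against WT replicate 3 alone these were 0.03 and -0.03. Of the ribosomal protein genes 68 of 79 and of the oxidative phosphorylation genes 49 of 61 lay in the shortest bin. So did 12 of 22 endoplasmic reticulum stress, 13 of 27 effector Treg and 10 of 21 core Treg genes. Fewer did in other lists, such as 4 of 21 cholesterol synthesis genes, 2 of 17 central Treg genes and 1 of 17 heat shock genes. Among single genes, Nenf had 26.7 RPKM in WT replicate 2, against 5.57 RPKM in WT replicate 3 and 7.87 and 5.22 RPKM in KO, and D11Wsu47e had 0.268 RPKM there, against 7.99 RPKM in WT replicate 3 and 8.45 and 6.73 RPKM in KO. What set this library apart was not tested.

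**Figure D5:**
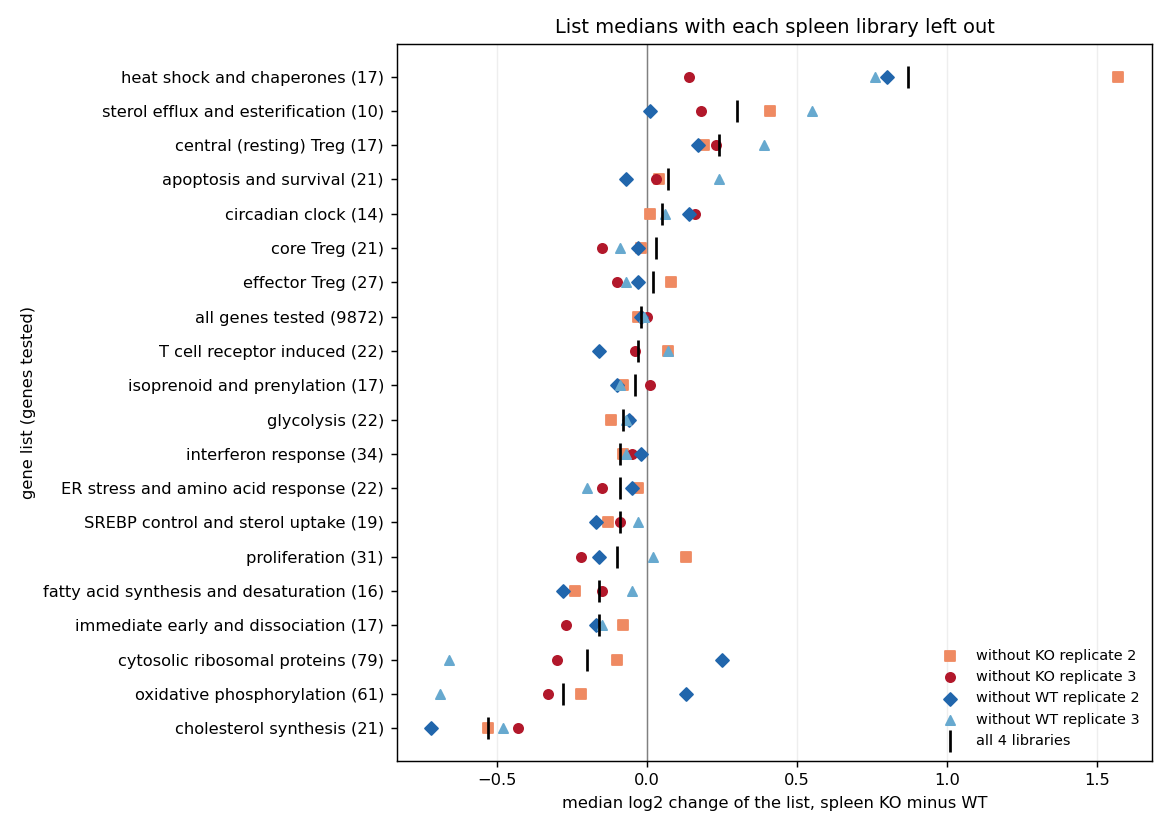
Median change of each pathway list in spleen (x axis, KO minus WT, log2(RPKM + 1)) with all 4 libraries (black bar) and with each library left out (coloured points), with the number of genes tested in brackets. Cholesterol synthesis lies between -0.72 and -0.43 in every case, heat shock drops to 0.14 without KO replicate 3, and oxidative phosphorylation and ribosomal proteins change sign without WT replicate 2.

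Set beside VAT, where the same deletion was measured in 3 libraries a group, the cholesterol synthesis list had a median of -0.53 in spleen and -0.56 in VAT, with 18 and 20 of 21 genes lower. Sqle stood at -1.95 ± 0.38 in spleen and -2.77 ± 0.31 in VAT, Idi1 at -0.73 ± 0.33 and -1.74 ± 0.27, Hmgcs1 at -1.02 ± 0.30 and -1.44 ± 0.25, and Cyp51 at -1.95 ± 0.38 and -1.38 ± 0.31. The differences between tissues for these 4 were 0.82, 1.01, 0.41 and -0.57, and none passed (limma adjusted p = 0.768, 0.689, 0.848 and 0.827). The largest difference among the enzymes was that of Hsd17b7, at 1.98 ± 0.58 (adjusted p = 0.576). Over all genes 0 of 9872 (0.0%) passed the test of the difference, and 701 (7.1%) had an unadjusted p under 0.05. A change in one tissue is thus not shown to differ from that in the other for any single gene. Nfil3 stood at -1.03 ± 0.20 in spleen and -0.11 in VAT (difference -0.92, adjusted p = 0.552), and Zfp189, a zinc finger protein, at -1.69 ± 0.33 and 0.71 (difference -2.40, adjusted p = 0.309).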

How the data were processed

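RNA of sorted Tregs was purified with a Quick-RNA MicroPrep kit, and libraries were made with SMART-seq v4 and Nextera XT, which does not mark strand, per the labels' protocols. STAR and mm10 are named in the submitters' processing notes. The authors deposited 1 table of RPKM values per gene and library; the sources used here name no counter, gene models or scaling denominator. RPKM are not counts, so depth and counting error are unknown. One further column (1 in all) fits none of the labels and was left out of every step.

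Values were analysed as log2(RPKM + 1) (pseudocount 1). One limma fit (version 3.58.1, R 4.3.3; trend on, robust off) held the 4 group means over 10 libraries (4 spleen, 6 VAT), without covariates, with 6 residual and 6.39 prior degrees of freedom. Tests were two-sided, with Benjamini-Hochberg adjustment over 9872 genes and calls at 0.05. A gene was 2-fold apart when both KO libraries lay at least 1 (log2) outside both WT libraries. The fit was tested on simulated data with the same spread per gene in all libraries. No simulated library stood apart as WT replicate 2 did, so that test does not cover this feature of the data. Positions and promoters are RefSeq's (GRCm38.p6); 10987 genes matched by Entrez identifier, which also gave back 15 symbols stored as dates. Transcript lengths are GENCODE's and covered 97.5% of tested genes.

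The members and gene lists were chosen with earlier results of these data known. Named were Srebf2 and sort genes, the cholesterol and SREBP lists, the 12 smallest p in each direction (at least 5 RPKM, no overlap), genes near Srebf2, 2 to 4 members with the smallest p of other lists, and genes where WT replicate 2 lay farthest outside. Zfp189, Ptprj, Aldh1b1, Zc2hc1a, Gm5532, Cbx6 and further list members were named after their values were seen. A few genes named by these rules are not reported here. As alternatives, each library was left out in turn, the pseudocount was set to 0.1 or 5, the filter was dropped or set to a mean of 5 RPKM, values were rescaled by quantiles or median ratios, and the fit was run on spleen alone, with weights for samples, with a robust spread or with a replicate block.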

Additional observations from a re-analysis of the deposited data

Results flagged for a closer look

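For 10 of the 148 named genes spleen KO and WT libraries did not overlap, nor did those of VAT, and the directions were opposite. Most of these 10 were named by their spleen values, and the share over all genes tested was not counted. The count is therefore no evidence of a difference between tissues. The values below are the differences of the KO effect, spleen minus VAT, on the log2(RPKM + 1) scale, and none passed limma's interaction test. Naprt, which makes NAD from nicotinic acid, had -1.97 (adjusted p = 0.324), from 1.41 and 2.63 RPKM in spleen KO, against 7.45 and 6.47 RPKM in spleen WT, and a mean of 2.48 RPKM in VAT KO, against 1.45 RPKM in VAT WT. Rilpl2, a Rab effector, had -1.24 (adjusted p = 0.324). Klf6, a zinc finger transcription factor, had 0.77 (adjusted p = 0.552), with means of 60.7 RPKM in spleen KO, against 37.8 RPKM in spleen WT, and of 213 RPKM in VAT KO, against 230.0 RPKM in VAT WT. Cxcr6 had 1.34 and Il1rl1 1.11 (adjusted p = 0.552 each). Both receptors were far more abundant in VAT, Il1rl1 at means of 139 RPKM in VAT KO and 182 RPKM in VAT WT beside 6.52 RPKM in spleen KO and 3.67 RPKM in spleen WT.

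Abca7, an ABC transporter, had 0.72 (adjusted p = 0.633), Insig2 -0.60 (adjusted p = 0.698) and Coq2, an enzyme of ubiquinone synthesis, -0.81 (adjusted p = 0.644). Calhm6 and Apol10b had -1.84 and -2.29 (limma adjusted p = 0.552 each), and both were named for a high level in spleen WT replicate 2, with 91.7 and 11.3 RPKM there, against 34.0 and 3.68 RPKM in spleen WT replicate 3.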

How the results depend on the processing

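In spleen, 0 genes passed limma under all scalings, filters and pseudocounts tried, in the spleen groups alone, with sample weights and with a robust spread (321 to 951 at an unadjusted p under 0.05). Leaving out 1 library gave 0 to 1429 genes. Srebf2 stayed lower throughout and passed at -2.99 (adjusted p = 0.0263) without WT replicate 2 and at -1.92 (adjusted p = 0.0164) without WT replicate 3. The difference of replicates 2 and 3 in spleen KO correlated at -0.06 across genes with that in spleen WT. In VAT, departures from the group mean correlated across genes between KO and WT at -0.1, 0.03 and -0.16 for replicates 1, 2 and 3. As WT replicate 2 stood apart in spleen, the spleen value cannot decide whether the replicate numbers pair the samples. With the numbers as a replicate block 0 genes passed (smallest adjusted p = 0.141), and with the block in the spleen groups alone 8 did, Srebf2 among them at -2.45 (adjusted p = 0.00189). Genes 2-fold higher in KO were 15 with a pseudocount of 0.1, 0 with 5, 5 after quantile normalization and 9 to 363 with 1 library left out. Genes 2-fold lower were 42 with 0.1, 2 with 5, 4 at a mean of 5 RPKM and 28 to 188 with 1 library left out. Genes 2-fold apart within 10 Mb of Srebf2, counted without regard to direction, were 6 with 0.1 and 1 with 5, beside 3 in the report. With 1 library left out they were 4 to 13. The cholesterol median was -0.29 with a pseudocount of 5 and -0.72 to -0.43 with 1 library left out. The interaction gave 0 genes except 2 without KO replicate 2 and 556 without WT replicate 3. Causes were not tested. Of 148 named genes, none of which passed with all libraries, 50 kept their sign and their side of the threshold in every alternative. Named genes passed only with the block in the spleen groups alone or with 1 spleen library left out, where 1 library stood for its group. Of the named genes, 36 had another sign in at least 1 alternative, without passing there. With 2 libraries a group and unknown depth, changes of low genes are the least certain.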
